A study of Mus musculus with 6 samples.

Results

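The genes described here encode enzymes of phase II conjugation, the step in which cells attach glutathione, glucuronic acid or sulfate to toxicants, drugs, steroids, bilirubin and other small molecules. They were chosen by symbol alone, from the names of 3 families in the table of read counts: Gst followed by a letter and a digit for the cytosolic glutathione transferases, Ugt1 to Ugt3 for the UDP-glucuronosyltransferases, and Sult followed by a digit for the cytosolic sulfotransferases. The rule found 59 of the 24063 genes in the table, of which 21 were glutathione transferases, 20 glucuronosyltransferases and 18 sulfotransferases. Enough reads for a test between genotypes were counted on 45 of the 59.

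RNA was sequenced from liver tumors of male mice of 2 genotypes, with 3 libraries from wild-type mice (WT, Nr2e3+/+) and 3 from Nr2e3-/- mice, which carry a knockout of the gene for the orphan nuclear receptor NR2E3. Mice of both genotypes, on the C57BL/6 background, had received diethylnitrosamine (DEN), a liver carcinogen, at 25 mg per kg by intraperitoneal injection at 15 days of age, and tumors were taken at the 24-week time point. All 6 libraries are therefore from DEN tumors, no liver without DEN or without a tumor was analysed here, and the comparison shows how the genotypes differed and not how tumors differ from liver. The authors deposited the number of single-end reads counted on each gene, and levels are given as CPM, the count of a gene scaled to a common library total after TMM normalization, which evens out differences in library composition.

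The liver is the main organ of conjugation. Glutathione transferases join the thiol of glutathione to electrophiles, including products of carcinogens, and several of them are known targets of the oxidative stress factor NRF2. Glucuronosyltransferases sit in the endoplasmic reticulum and use UDP-glucuronic acid, whereas sulfotransferases work in the cytosol with the activated sulfate PAPS, and several members of the mouse Ugt2b and Sult families are known to differ between the sexes.

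The libraries held between 15376261 and 28690279 counts. A count of 0 allowed a level of up to 0.105 to 0.195 CPM, depending on the library, taking 3 counts as its upper limit. Nr2e3 itself had 0 counts in all 6 libraries, so the genotype could not be checked from its own transcript. The 6 hepatocyte markers were all tested, and their summed level lay between 112700 and 151500 CPM, with albumin (Alb) as the main contributor in both genotypes. One library stood apart: Nr2e3-/- replicate 1 correlated better with the WT libraries (mean r = 0.978 over genes) than with the other two libraries of its own label (0.962), and it was the shallowest. Values without it are therefore given beside the calls and the results it moved most. The libraries are separate samples by their labels, and the p-values measure the spread between these tumors.

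None of the 45 tested members passed an adjusted p of 0.05 with edgeR's quasi-likelihood test, where 13 of 13572 genes did (0.0958%). The smallest adjusted p among them was 0.0700, for Ugt2b37. At an unadjusted p under 0.05, 13 members differed, 7 higher in Nr2e3-/- tumors and 6 lower. That is 28.9% of those tested, against 21.5% of all genes (11.8% higher and 9.72% lower). The share was 34.2% when the 8 Ugt1a genes, which share most of their reads, were counted as 1. Sult1e1, among the 7 higher, had enough reads for a test only in the Nr2e3-/- libraries. With DESeq2 instead of edgeR, 9 members had an adjusted p under 0.05, 6 higher and 3 lower, beside 7.93% of all genes with an adjusted p (4.87% higher and 3.06% lower). Without Nr2e3-/- replicate 1, edgeR also called 9 of 45 members, again 6 higher and 3 lower, beside 21.8% of all genes (12.2% higher and 9.65% lower). The WT and Nr2e3-/- libraries did not overlap in 21 of the 45 members, 7 with Nr2e3-/- above and 14 below, or in 14 of 38 with Ugt1a as 1 gene, where 26.8% of all genes showed no overlap (13.9% above, 12.9% below). All 13 members with an unadjusted p under 0.05 were among them, and for each the exact permutation p (two-sided) was 0.1, the smallest that 3 against 3 libraries allow. The median log2 fold change (Nr2e3-/- over WT) of all tested members was -0.08, beside 0.01 for all genes. Of the 45, 25 lay below 0, beside 49.2% of all genes. Counting Ugt1a as 1 gene, the median was 0.01 and 18 of 38 (47.4%) lay below 0. In bulk samples fewer cells of a type and less RNA per cell cannot be told apart, which holds for every level given here.

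**Figure D1:**
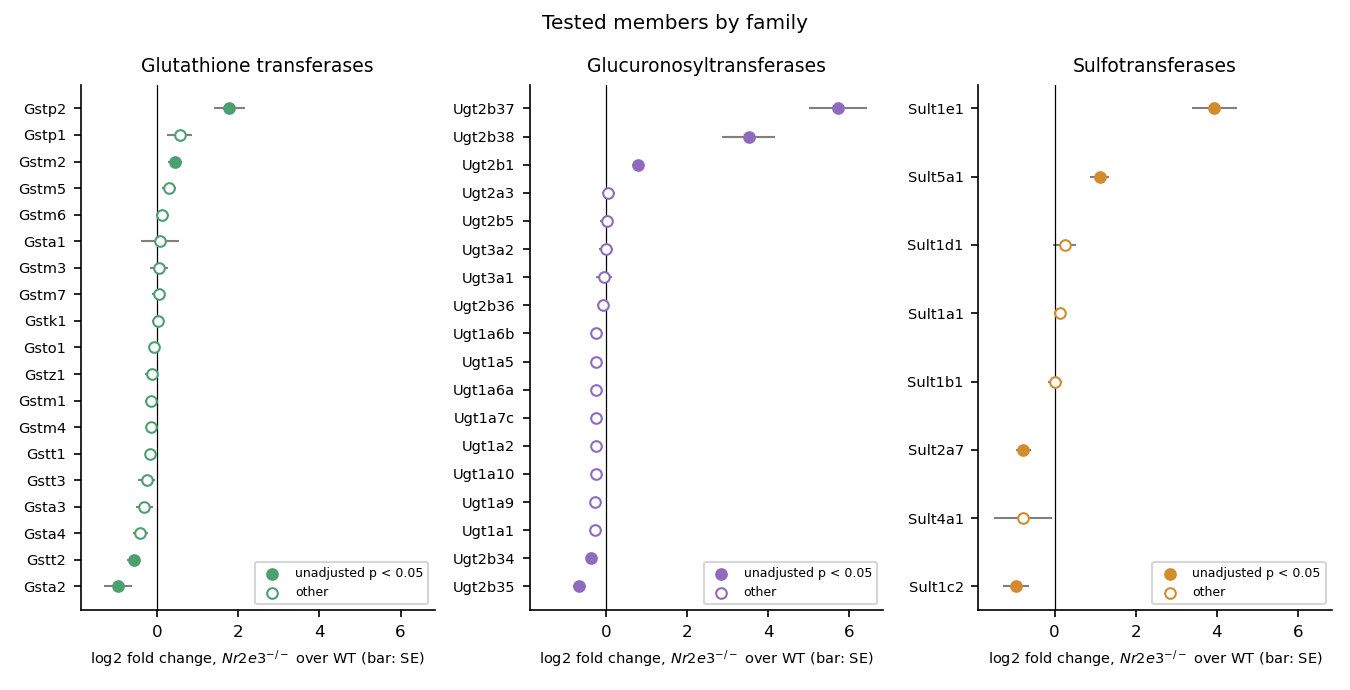
Log2 fold change of Nr2e3-/- over WT tumors (horizontal axis, bar: SE) for each of the 45 tested members, in 3 panels by family. Filled points have an unadjusted p under 0.05, and the values at the far right belong to Ugt2b37 (5.72), Sult1e1 (3.94) and Ugt2b38 (3.52), while the other tested members lie between -0.96 (Sult1c2) and 1.78 (Gstp2).

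**Figure D2:**
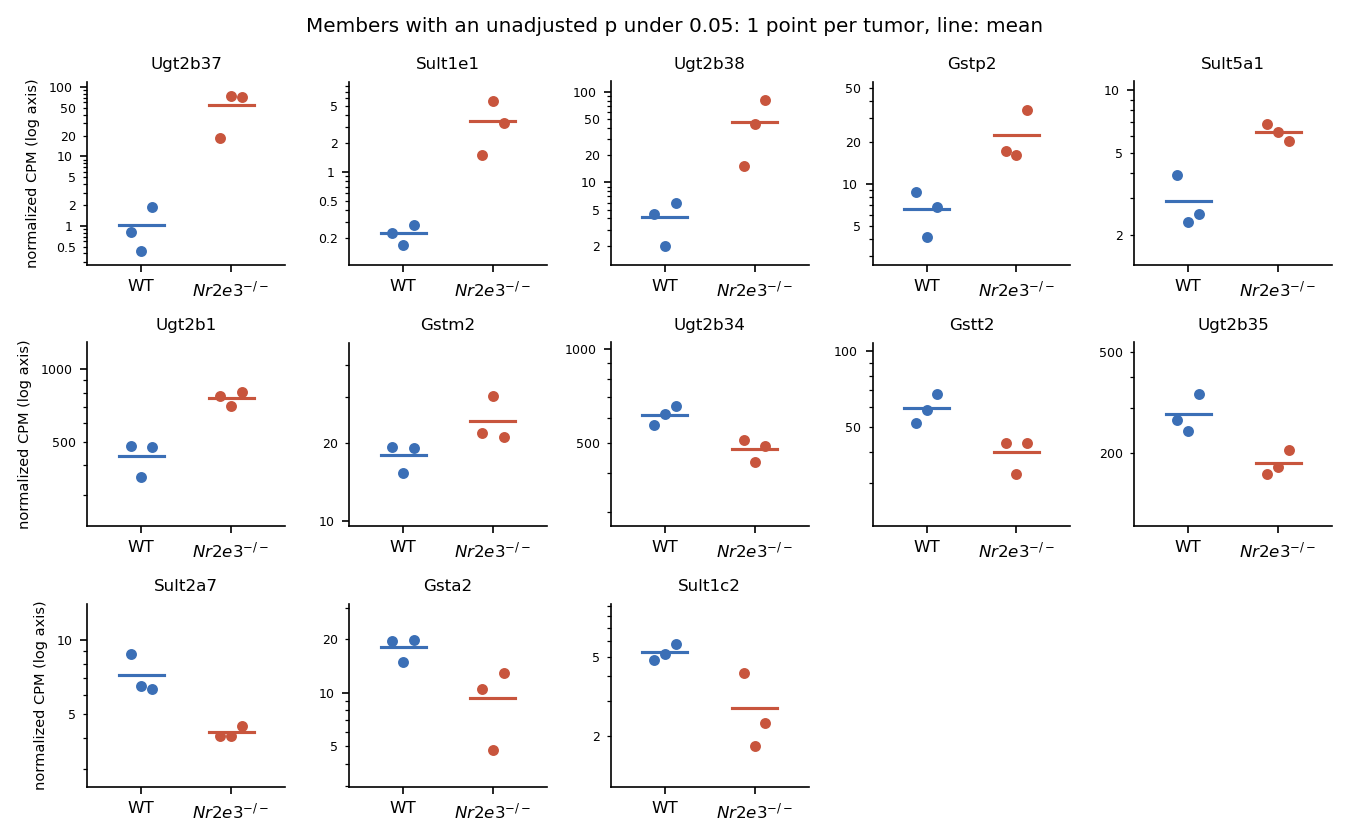
Normalized CPM (vertical log axis, 1 panel per gene) of the 13 members with an unadjusted p under 0.05, with 1 point per tumor and a line at each group's mean. In every panel the 3 WT points and the 3 Nr2e3-/- points do not overlap, and among the genes higher in Nr2e3-/- tumors the span runs from Gstm2 (24.4 against 17.9 CPM) to Ugt2b37 (55.1 against 1.04 CPM).

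The largest differences of any member lay in the Ugt2b cluster of glucuronosyltransferases, whose products conjugate steroids, bile acids and drugs. Ugt2b37 (chromosome 5, 87240492 to 87254788, GRCm38, minus strand) stood at 0.806, 0.440 and 1.87 CPM in WT tumors, whereas Nr2e3-/- replicates 1, 2 and 3 held 18.6, 75.3 and 71.4 CPM. These correspond to 21, 13 and 54 counts in WT and to 281, 2028 and 1320 counts in Nr2e3-/- tumors, so that the gene was scarce in WT tumors and every Nr2e3-/- library lay well above all of them. The log2 fold change was 5.72 ± 0.72 (SE), a 53.0-fold ratio of the group means, with adjusted p = 0.0700 by edgeR. Over the 13 alternative settings the adjusted p ran from 1.39e-09 to 0.323 and the log2 fold change from 5.35 to 6.47, and without Nr2e3-/- replicate 1 they were 0.00138 and 6.14. The summed level of the bile duct markers, mostly from Spp1, was 69.9, 429 and 187 CPM in Nr2e3-/- replicates 1 to 3 and 58.0 to 122 CPM in WT. This sum had the same order among the Nr2e3-/- libraries, while Krt7, Krt19 and Sox9 of the list were highest in replicate 1. The part of bile duct cells in the difference was not tested.

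Ugt2b38, on the same chromosome and strand (87409939 to 87424203), was likewise low in WT tumors, at 4.45, 1.96 and 6.00 CPM, and reached 15.4, 44.4 and 82.3 CPM in Nr2e3-/- replicates 1 to 3. Replicate 1 again lay closest to WT, and the spread among the 3 Nr2e3-/- libraries was wide. The log2 fold change was 3.52 ± 0.66 (SE, adjusted p = 0.0930 with edgeR and 0.0041 without Nr2e3-/- replicate 1, range over alternatives 0.000432 to 0.338). Summed, both genes stood at 5.18 ± 2.73 CPM (SD, n = 3) in WT and 103 ± 61.7 CPM (SD, n = 3) in Nr2e3-/- tumors.

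The start regions of these genes are shown because both genes belong to 1 group of close copies with Ugt2b5, a neighbour that was abundant in both genotypes. Ugt2b37 and Ugt2b38 share 94.1% of their coding bases with each other, and 94.7% and 97.0% with Ugt2b5. Below are the 250 bases before the annotated start of each gene, read 5′ to 3′ on the minus strand from RefSeq's annotation of GRCm38.p6, at chr5:87140341-87140590 for Ugt2b5, chr5:87254789-87255038 for Ugt2b37 and chr5:87424204-87424453 for Ugt2b38. Capitals mark bases that differ from, or are missing in, the aligned Ugt2b5 sequence, and ends outside the alignment are in lower case.
Ugt2b5: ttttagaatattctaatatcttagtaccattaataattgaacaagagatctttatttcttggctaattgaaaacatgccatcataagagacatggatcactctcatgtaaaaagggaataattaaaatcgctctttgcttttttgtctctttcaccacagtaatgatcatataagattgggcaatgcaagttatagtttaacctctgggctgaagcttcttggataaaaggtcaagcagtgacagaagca
Ugt2b37: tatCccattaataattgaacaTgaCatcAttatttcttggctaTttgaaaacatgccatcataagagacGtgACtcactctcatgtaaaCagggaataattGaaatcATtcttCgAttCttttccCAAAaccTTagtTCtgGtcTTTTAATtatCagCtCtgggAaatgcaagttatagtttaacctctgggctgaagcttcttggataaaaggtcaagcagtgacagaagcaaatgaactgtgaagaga
Ugt2b38: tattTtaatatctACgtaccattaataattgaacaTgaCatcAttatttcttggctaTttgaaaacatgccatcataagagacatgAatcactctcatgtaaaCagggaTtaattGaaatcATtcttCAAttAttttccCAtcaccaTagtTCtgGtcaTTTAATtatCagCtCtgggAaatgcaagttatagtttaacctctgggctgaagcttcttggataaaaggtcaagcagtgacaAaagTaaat
The aligned bases were 83.9% identical for Ugt2b37 and 85.1% for Ugt2b38, each with 35 capitals. Bases 101 to 190 of the printed sequence held 26 of them in Ugt2b37 and 25 in Ugt2b38. The bases from 191 on held 0 and 2, but in both genes the final ones before the start lie outside the alignment and were not compared.

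Ugt2b5 itself overlapped between the genotypes. It stood at 619, 538 and 724 CPM in WT and at 591, 594 and 725 CPM in Nr2e3-/- tumors, with a log2 fold change of 0.02 ± 0.16 (SE). Reads can be shared between such copies: of all 50-base windows of the transcript, 18.3% of those of Ugt2b37, 37.4% of those of Ugt2b38 and 41.7% of those of Ugt2b5 occur in another gene as well. The counts of Ugt2b37 and Ugt2b38 are therefore uncertain in both genotypes, the low WT counts included, by an amount that these shares do not measure. How the counting treated reads with several matches is not given in the sources used here.

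Ugt2b1, one of the most abundant members of the group, carries no window shared with another gene. It was measured at 480, 358 and 474 CPM in WT and at 775, 703 and 808 CPM in Nr2e3-/- tumors, replicate 1 included among the high values. The log2 fold change was 0.80 ± 0.15 (SE, adjusted p = 0.0930 with edgeR and 0.0203 without Nr2e3-/- replicate 1, range over alternatives 0.000188 to 0.338). Per kilobase of exon its level was 170 CPM in WT and 296 CPM in Nr2e3-/- tumors, whereas that of Ugt2b37 was 0.549 and 29.1 CPM, so that also in Nr2e3-/- tumors Ugt2b37 lay well under Ugt2b1, Ugt2b5 (342) and Ugt2b36 (390).

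In the opposite direction, Ugt2b35 was measured at 269, 243 and 342 CPM in WT against 164, 176 and 205 CPM in Nr2e3-/- tumors (log2 fold change -0.65 ± 0.16, SE, adjusted p = 0.116 with edgeR and 0.0579 without Nr2e3-/- replicate 1, range over alternatives 0.0149 to 0.338). Ugt2b34 stood at 571, 620 and 656 CPM in WT and at 509, 433 and 488 CPM in Nr2e3-/- tumors (-0.37 ± 0.12, SE, adjusted p = 0.161 with edgeR and 0.0592 without Nr2e3-/- replicate 1, range over alternatives 0.0553 to 0.417). Both had the 3 Nr2e3-/- libraries below the 3 WT libraries, by a margin that was small beside that of Ugt2b37. Ugt2b36, the most counted of the Ugt2b genes in WT tumors, overlapped between the genotypes (775 ± 37.9 against 736 ± 101 CPM, SD, n = 3). The opposing differences nearly cancelled in the sum. All 7 Ugt2b genes together stood at 2745 ± 248 CPM in WT and 2894 ± 282 CPM in Nr2e3-/- tumors (SD, n = 3), and at 2740 and 2791 CPM without Ugt2b37 and Ugt2b38.

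All 7 lie in 1 stretch of chromosome 5 of 701.8 kb, from the first base of Ugt2b34 at 86889770 to the last base of the estrogen sulfotransferase gene Sult1e1 at 87591611. The count table holds 13 genes there and all of them are members: 7 Ugt2b genes, 3 Ugt2a genes and 3 Sult1 genes. Of the 11 that were tested, 4 had an unadjusted p under 0.05 and were higher in Nr2e3-/- tumors (Ugt2b1, Ugt2b37, Ugt2b38 and Sult1e1), and 2 had one and were lower (Ugt2b34 and Ugt2b35), where 11.8% of all genes were higher and 9.72% lower at that threshold. Sult1e1 entered the test through its Nr2e3-/- libraries alone, so its place among the 4 was partly set by the filter. The largest 3 log2 fold changes among all members, those of Ugt2b37, Sult1e1 and Ugt2b38, were all found in this stretch. Genes that lie between them stayed near 0 on the log2 fold change scale: Ugt2a3 at 0.06, between Ugt2b37 and Ugt2b38, and Sult1b1 at 0.01 and Sult1d1 at 0.25, between Ugt2b38 and Sult1e1. Over the alternatives Ugt2a3 ran from -0.04 to 0.18, Sult1b1 turned to -0.07 with upper quartile normalization, and Sult1d1 to -0.02 without Nr2e3-/- replicate 1.

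**Figure D3:**
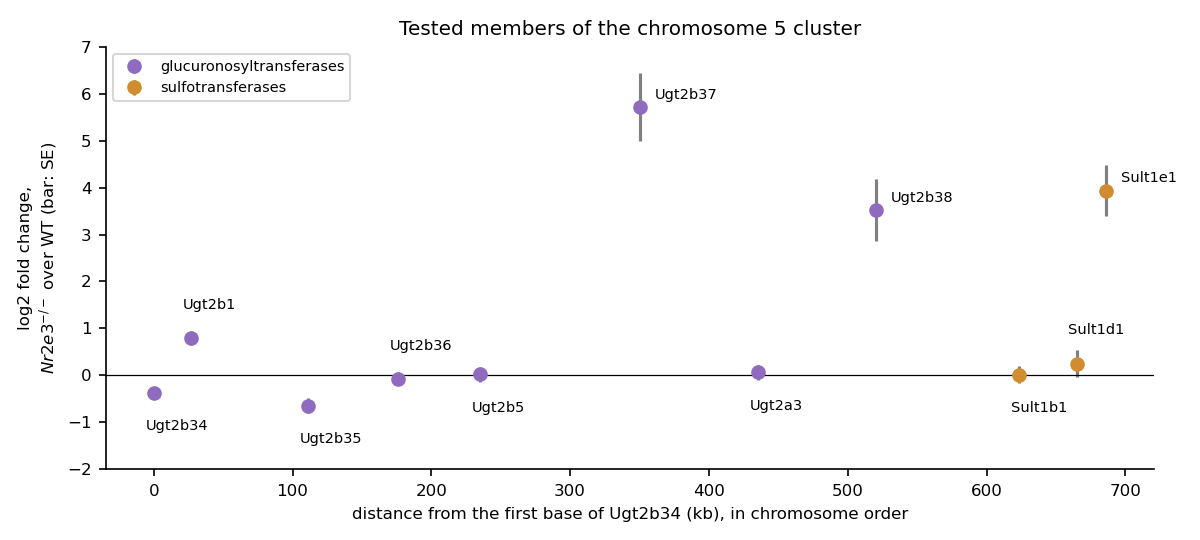
Log2 fold change of Nr2e3-/- over WT tumors (vertical axis, bar: SE) of the 11 tested members of the chromosome 5 stretch, against the distance from the first base of Ugt2b34 in kb. Ugt2b37 at 350.7 kb, Ugt2b38 at 520.2 kb and Sult1e1 at 686.2 kb stand at 3.52 or more, and the genes between them sit near 0.

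Sult1e1, whose product inactivates estrogens by sulfation, was close to the limit of detection in WT tumors, with 6, 5 and 8 counts (0.230, 0.169 and 0.277 CPM). In Nr2e3-/- tumors it had 23, 151 and 61 counts (1.52, 5.6 and 3.30 CPM), so every one of these libraries lay above WT and replicate 1 was again nearest to it. It entered the test through its Nr2e3-/- libraries alone, and a gene admitted in this way is bound to differ to some degree. Its log2 fold change was 3.94 ± 0.55 (SE, adjusted p = 0.0757 with edgeR and 0.00193 without Nr2e3-/- replicate 1, range over alternatives 2.68e-08 to 0.324), and no 50-base window of its transcript occurs in another gene.

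The Ugt1a genes, which include the bilirubin-conjugating Ugt1a1, occupy 1 locus on chromosome 1 where each gene has its own first exon and all share the exons that follow. In the count table the 8 Ugt1a rows held nearly the same number, as when reads of the shared exons are counted on each of them. The smallest of the 8 rows, taken as the shared part, held 21066, 27945 and 26763 counts in WT and 11533, 19076 and 14510 counts in Nr2e3-/- libraries. Only 0.002% of the Ugt1a2 row, 0.03% of Ugt1a10 and 0.028% of Ugt1a7c lay above it, whereas 2.39% of Ugt1a9, 3.55% of Ugt1a6a, 3.6% of Ugt1a5, 3.65% of Ugt1a6b and 22.2% of Ugt1a1 did. Ugt1a1 thus had the largest part of its own among the 8.

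**Figure D4:**
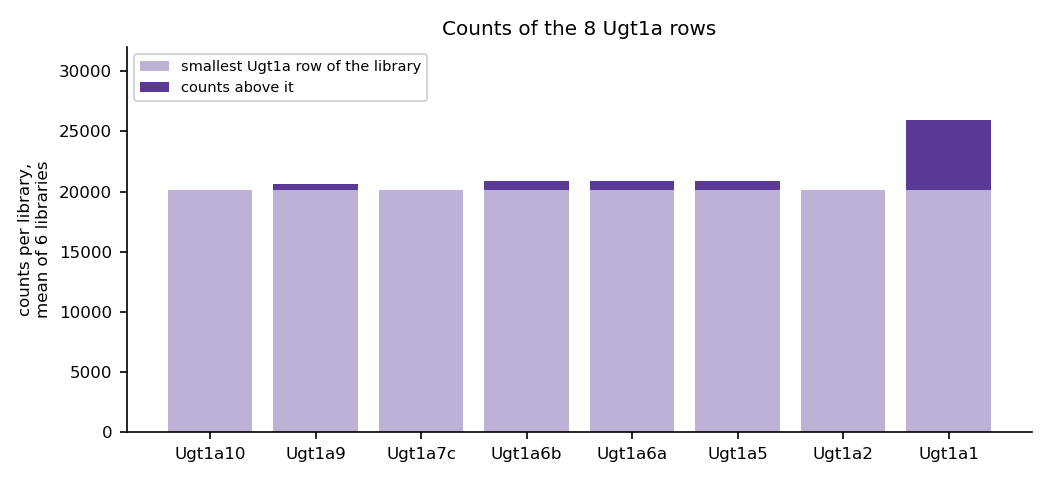
Counts per library (vertical axis, mean of the 6 libraries) of the 8 Ugt1a rows, split into the smallest row of each library (light) and the counts above it (dark). The light parts are equal by construction, and a sizeable dark part is seen on Ugt1a1, with 22.2% of its row.

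As 1 locus, Ugt1a was measured slightly lower in Nr2e3-/- tumors. The Ugt1a1 row read 1045, 1246 and 1178 CPM in WT and 963, 908 and 993 CPM in Nr2e3-/- tumors, which did not overlap. Its log2 fold change was -0.28 ± 0.12 (SE), with adjusted p = 0.247 by edgeR, and its unadjusted p missed the threshold too. With upper quartile scaling, all 8 rows had an unadjusted p under 0.05 and were lower, and none an adjusted one. The Ugt1a1 row also had an unadjusted p under 0.05 with DESeq2 (0.0344) and with edgeR on genes with at least 10 counts in every library (0.0484). Over the alternatives its adjusted p ran from 0.161 to 0.529. The counts above the shared part were a quantity added after the rows had been seen. For them Ugt1a1 gave -0.37 ± 0.12 (SE, unadjusted p = 0.0186 and adjusted p = 0.164 with edgeR). The shared part itself gave -0.25, and the counts above it gave -0.47 ± 0.37 for Ugt1a9, -0.20 for Ugt1a6a, -0.08 for Ugt1a6b and -0.07 for Ugt1a5. Because 8 rows repeat 1 measurement, the family counts are also given without them. Of 18 tested glucuronosyltransferases 6 had a log2 fold change above 0 and 12 below it, with a median of -0.24, and of the 10 outside Ugt1a the split was 6 and 4, with a median of 0.02. The remaining Ugt genes, Ugt3a1 and Ugt3a2, which use other UDP sugars, overlapped between genotypes (log2 fold changes -0.04 and 0.01), and Ugt2a1 and Ugt2a2 were not tested, having 2 counts each in all libraries together.

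The glutathione transferases were the most evenly split family. Of 19 tested, 9 had a log2 fold change above 0 and 10 below it, the median was -0.07 (0.03 with no filter beyond 1 count), and 2 in each direction had an unadjusted p under 0.05, a share of 21.1% beside 21.5% of all genes. The number higher was 1 without WT replicate 2 or 3, and the number lower was 1 without WT replicate 1 or 3 and 4 without Nr2e3-/- replicate 1. The abundant members overlapped between the genotypes. Gsta3, an alpha class enzyme known to detoxify aflatoxin epoxide in mice, read 1285, 1449 and 1487 CPM in WT and 1484, 836 and 1082 CPM in Nr2e3-/- tumors. The groups overlapped because of Nr2e3-/- replicate 1, and the log2 fold change of -0.31 ± 0.21 (SE, adjusted p = 0.421 with edgeR) became -0.55 (adjusted p = 0.0535, range over alternatives 0.0535 to 0.677) without that library. Gstm1, the leading mu class gene, was measured at 1267, 1036 and 1323 CPM in WT and at 940, 1126 and 1205 CPM in Nr2e3-/- tumors. Gstz1, an enzyme of tyrosine breakdown, was at 584 ± 15.9 against 533 ± 97.8 CPM (SD, n = 3), also with overlap. Per kilobase of exon, Gsta3 (907 CPM per kilobase) and Gstm1 (884) were the highest of all members in WT tumors, ahead of the Ugt1a1 row (520).

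The pi class consists of a pair of near copies. Gstp1, the main pi gene of male mouse liver, read 318, 205 and 369 CPM in WT and 431, 287 and 598 CPM in Nr2e3-/- tumors, so that the groups overlapped and the log2 fold change of 0.56 ± 0.31 (SE) had an adjusted p of 0.326 by edgeR. Gstp2 (chromosome 19, 4040288 to 4042221, minus strand) stood at 8.79, 4.16 and 6.86 CPM in WT and at 17.4, 16.1 and 34.6 CPM in Nr2e3-/- tumors, without overlap. Its log2 fold change was 1.78 ± 0.38 (SE, adjusted p = 0.0994 with edgeR and 0.0191 without Nr2e3-/- replicate 1, range over alternatives 0.000256 to 0.338). Whether the pair differed from each other in response was not tested. The coding sequences are 98.1% identical, and 62.3% of the 50-base windows of Gstp1 and 72.6% of those of Gstp2 occur in other genes, so that the division of reads between the pair is uncertain. The start regions of the pair, 250 bases on the minus strand from the same annotation, are shown to set the copies side by side, at chr19:4037913-4038162 for Gstp1 and chr19:4042222-4042471 for Gstp2, with capitals where Gstp2 differs from the aligned Gstp1 base or has none to pair with.
Gstp1: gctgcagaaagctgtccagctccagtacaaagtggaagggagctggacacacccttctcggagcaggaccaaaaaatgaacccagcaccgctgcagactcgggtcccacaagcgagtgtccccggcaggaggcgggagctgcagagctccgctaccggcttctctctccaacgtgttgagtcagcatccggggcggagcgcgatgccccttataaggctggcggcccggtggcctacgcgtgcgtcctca
Gstp2: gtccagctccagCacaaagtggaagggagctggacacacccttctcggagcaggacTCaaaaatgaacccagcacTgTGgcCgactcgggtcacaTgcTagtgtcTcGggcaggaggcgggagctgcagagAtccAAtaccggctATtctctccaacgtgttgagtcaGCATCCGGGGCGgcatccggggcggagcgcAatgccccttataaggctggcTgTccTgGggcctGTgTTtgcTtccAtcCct
They were 83.2% identical over 250 aligned columns, gaps included, and Gstp1 bases that are missing from Gstp2 carry no mark.

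Gstm2, a minor mu class gene, was the other glutathione transferase with a higher value, at 19.3, 15.4 and 19.1 CPM in WT against 21.8, 30.4 and 21 CPM in Nr2e3-/- tumors (log2 fold change 0.45 ± 0.18, SE, adjusted p = 0.211 with edgeR and 0.0855 without Nr2e3-/- replicate 1, range over alternatives 0.0855 to 0.481). Those below WT were Gstt2 and Gsta2. Gstt2, of the theta class, was measured at 51.9, 58.5 and 67.5 CPM in WT and at 43.3, 32.7 and 43.4 CPM in Nr2e3-/- tumors (-0.58 ± 0.16, SE, adjusted p = 0.127 with edgeR and 0.0384 without Nr2e3-/- replicate 1, range over alternatives 0.0384 to 0.352). Gsta2 read 19.4, 14.8 and 19.8 CPM in WT and 10.5, 4.75 and 12.9 CPM in Nr2e3-/- tumors (-0.95 ± 0.34, SE, adjusted p = 0.180 with edgeR and 0.103 without Nr2e3-/- replicate 1, range over alternatives 0.0838 to 0.418). Its near copy Gsta1, with 97.6% identical coding bases, was low in both groups, at 2.03 ± 0.595 and 2.10 ± 1.32 CPM (SD, n = 3), and 64.2% of the windows of Gsta2 and 89.7% of those of Gsta1 are shared with other genes. Gsta4, which clears the lipid peroxidation product 4-hydroxynonenal, overlapped at 92.0 ± 12.7 against 69.4 ± 17.3 CPM (SD, n = 3).

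The 10 glutathione transferases listed as inducible by NRF2 (Gsta1 to Gsta4, Gstm1 to Gstm4, Gstm6 and Gstp1) showed no shared direction. Of these, 5 had a log2 fold change above 0 and 5 below it, Gstm2 was higher and Gsta2 lower at an unadjusted p under 0.05, and the median was -0.05. The values of Gstm3 (0.05), Gstm4 (-0.15) and Gstm6 (0.13) were within their SE of 0 or close to it, and Gstm3 turned to -0.04 with upper quartile normalization, as Gsta1 did (0.08 to -0.02). The list's summed level was 3250, 2984 and 3535 CPM in WT and 3173, 2553 and 3223 CPM in Nr2e3-/- tumors, with overlap.

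Sulfotransferases were the family with the fewest tested members, 8 of 18, and 4 of the 8 had an unadjusted p under 0.05, 2 in each direction, beside 21.5% of all genes (11.8% higher, 9.72% lower). One of the 4, Sult1e1, passed the filter only through the group in which it was high. The number lower was 1 without WT replicate 3 or Nr2e3-/- replicate 3. The abundant ones overlapped between the genotypes. Sult1a1, the main phenol sulfotransferase, stood at 227, 307 and 255 CPM in WT and at 307, 292 and 262 CPM in Nr2e3-/- tumors, and Sult1d1, which acts on catecholamines, at 122 ± 24.7 and 145 ± 51.9 CPM (SD, n = 3). Sult1b1, which sulfates thyroid hormones, was at 25.6 ± 3.81 and 25.9 ± 4.96 CPM (SD, n = 3). The differing members were all scarce. Beside Sult1e1, Sult5a1 was higher, at 3.92, 2.30 and 2.53 CPM in WT against 6.88, 6.31 and 5.68 CPM in Nr2e3-/- tumors (log2 fold change 1.11 ± 0.24, SE, adjusted p = 0.10 with edgeR and 0.0349 without Nr2e3-/- replicate 1, range over alternatives 0.00298 to 0.338). For this gene replicate 1 was the highest Nr2e3-/- library and not the one nearest to WT.

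Sult1c2 was lower, at 4.84, 5.17 and 5.79 CPM in WT against 4.17, 1.78 and 2.33 CPM in Nr2e3-/- tumors (-0.96 ± 0.32, SE, adjusted p = 0.164 with edgeR). The gap was narrow on account of Nr2e3-/- replicate 1, and without it the log2 fold change was -1.36 (adjusted p = 0.00934, range over alternatives 0.00934 to 0.427). Sult2a7, of the subfamily that sulfates hydroxysteroids and bile acids, was measured at 8.75, 6.53 and 6.31 CPM in WT and at 4.10, 4.08 and 4.49 CPM in Nr2e3-/- tumors, which were close to one another and all below WT (-0.77 ± 0.19, SE, adjusted p = 0.113 with edgeR and 0.0466 without Nr2e3-/- replicate 1, range over alternatives 0.0235 to 0.342). Sult4a1, a mainly neuronal member, overlapped at 2.49 ± 1.67 and 1.41 ± 0.836 CPM (SD, n = 3).

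Of the 14 members that were not tested, 10 were sulfotransferases. Sult1c1 had no count in any library. Sult2a1 to Sult2a6 and Sult3a1 belong to a list of sulfotransferases known as female-predominant in mouse liver, and in these male tumors none of them passed the filter. The list has 9 names, of which 8 are in the table and only Sult2a7 was tested. Sult2a2 had 3, 20 and 1 counts in the WT libraries and 0 in each Nr2e3-/- library, a difference that 1 WT library mostly made. Sult2b1, the cholesterol sulfotransferase, had 18, 6 and 3 counts in WT and 2, 4 and 3 in Nr2e3-/- libraries. Without the filter (no limit beyond 1 count), edgeR gave Sult2a2 an adjusted p of 0.218 and Sult2b1 one of 0.502, and DESeq2 left the adjusted p of both as not available.

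Set side by side, the summed levels of the 3 families overlapped between the genotypes. Glutathione transferases stood at 4364, 4123 and 4692 CPM in WT and 4380, 3424 and 4295 CPM in Nr2e3-/- tumors. Glucuronosyltransferases, with Ugt1a taken once as its Ugt1a1 row, were at 4284, 4389 and 4867 CPM in WT and 4484, 4056 and 4886 CPM in Nr2e3-/- tumors, so both families took up a like part of the RNA. Sulfotransferases were far lower, at 369, 477 and 442 CPM in WT and 551, 425 and 452 CPM in Nr2e3-/- tumors. All members together made up between 0.752% and 1.05% of the counts of a library. Sums get no test here, and they rest on the abundant genes, while most members with an unadjusted p under 0.05 were scarce: of the 13, Ugt2b1, Ugt2b34 and Ugt2b35 exceeded 100 CPM in WT tumors and the other 10 did not.

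**Figure D5:**
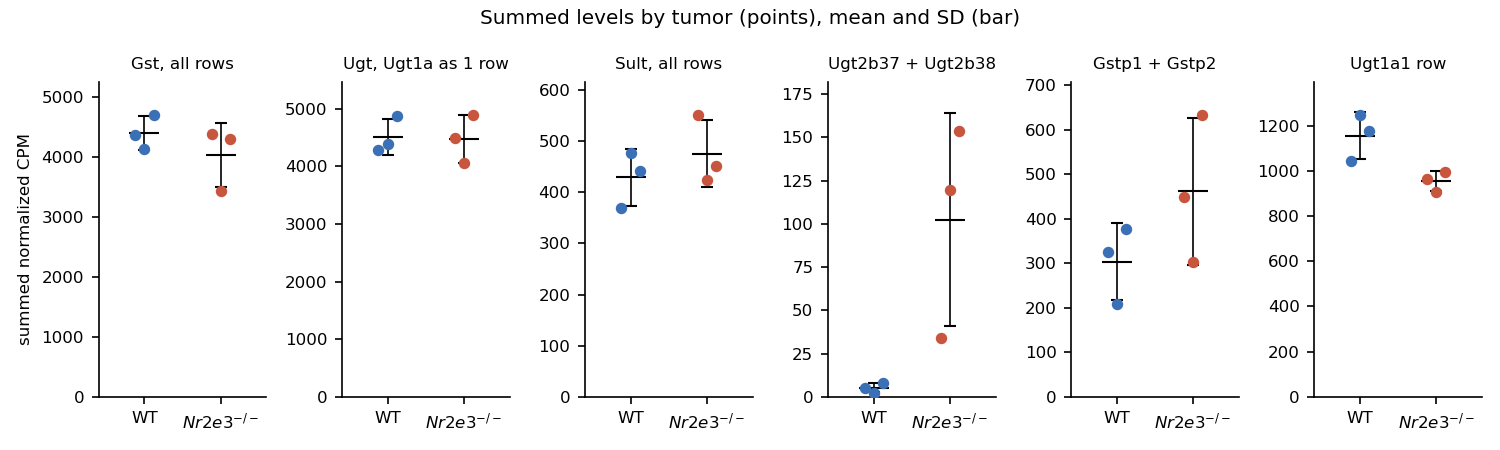
Summed normalized CPM (vertical axes from 0) in each tumor for the 3 families and for 3 parts of them, with 1 point per tumor and the mean and SD as a bar. The 3 families overlap between WT and Nr2e3-/- tumors, the sum of Ugt2b37 and Ugt2b38 runs from 2.40 to 7.87 CPM in WT and from 34.0 to 154 CPM in Nr2e3-/- tumors, and the Ugt1a1 row lies lower in Nr2e3-/- tumors.

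Other genes of the pathway were taken from lists, and none of their members had an adjusted p under 0.05 with edgeR. Among the suppliers of PAPS, 7 of 8 listed genes were in the table and tested, and 4 had an unadjusted p under 0.05, beside 21.5% of all genes, a share that also stands beside the counts of the other lists. Papss1, which makes PAPS from ATP and sulfate, was measured at 21.9, 14 and 16.2 CPM in WT and at 6.88, 5.68 and 5.68 CPM in Nr2e3-/- tumors, with a log2 fold change of -1.52 ± 0.20 (SE, adjusted p = 0.0757 with edgeR and 0.00669 without Nr2e3-/- replicate 1, range over alternatives 1.16e-07 to 0.324). Its more abundant partner in the liver, Papss2, overlapped (179, 172 and 217 against 214, 134 and 128 CPM), and without Nr2e3-/- replicate 1 it gave -0.52 (adjusted p = 0.0368, range over alternatives 0.0368 to 0.839). The PAPS transporter Slc35b2 was lower (-0.33 ± 0.11, SE), and its relative Slc35b3 (0.46 ± 0.19) and the phosphatase Bpnt1, which removes the spent cofactor (0.30 ± 0.10), were higher at an unadjusted p under 0.05.

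In the supply of glutathione, 7 of 8 genes were tested and Gsr, glutathione reductase, had an unadjusted p under 0.05 (74.8, 74.6 and 79.1 CPM in WT, 80.0, 106 and 105 CPM in Nr2e3-/- tumors). Without Nr2e3-/- replicate 1 its log2 fold change was 0.48 (adjusted p = 0.0149, range over alternatives 0.0149 to 0.47). Gclc, the catalytic subunit of the rate-limiting step of glutathione synthesis, split the Nr2e3-/- libraries: it read 393, 365 and 369 CPM in WT and 271, 1191 and 863 CPM in Nr2e3-/- replicates 1, 2 and 3. Replicate 1 was below all WT libraries and the others far above them, and the log2 fold change of 1.05 ± 0.46 (SE, adjusted p = 0.245 with edgeR) became 1.46 (adjusted p = 0.00369, range over alternatives 0.00369 to 0.505) without replicate 1. Of 5 genes listed around UDP-glucuronic acid, Slc35b1 was higher at an unadjusted p under 0.05 (0.62 ± 0.20, SE), and its part in this supply was not tested. Ugp2, Slc35d1 and Gusb overlapped, as did Ugdh, which makes the sugar (306, 219 and 310 against 282, 416 and 459 CPM). Without Nr2e3-/- replicate 1, Ugdh gave 0.66 (adjusted p = 0.0409, range over alternatives 0.0409 to 0.581). The membrane-bound glutathione transferases are a family apart from the cytosolic one. Mgst3 was at 16.7, 18.1 and 15.3 CPM in WT and 9.99, 7.76 and 8.38 CPM in Nr2e3-/- tumors (-0.94 ± 0.15, SE, adjusted p = 0.0844 with edgeR and 0.00494 without Nr2e3-/- replicate 1, range over alternatives 3.58e-05 to 0.334), and the abundant Mgst1 overlapped (0.15 ± 0.13, SE).

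Of 12 other conjugating enzymes, 6 had a log2 fold change above 0 and 6 below it. Nnmt, which methylates nicotinamide, was measured at 69, 50 and 62 CPM in WT and at 135, 127 and 173 CPM in Nr2e3-/- tumors (1.26 ± 0.17, SE, adjusted p = 0.0757 with edgeR and 0.007 without Nr2e3-/- replicate 1, range over alternatives 1.23e-07 to 0.323). Of the 12, 10 did not reach an unadjusted p under 0.05.

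Among 11 regulators of conjugating enzymes, 3 were higher and 1 lower at an unadjusted p under 0.05. The aryl hydrocarbon receptor gene Ahr read 39.5, 46.4 and 45.6 CPM in WT and 64.2, 149 and 132 CPM in Nr2e3-/- tumors (1.39 ± 0.29, SE, adjusted p = 0.0984 with edgeR and 0.00138 without Nr2e3-/- replicate 1, range over alternatives 0.000323 to 0.34). Hnf4a, which encodes a factor of hepatocyte identity, was higher (0.50 ± 0.17, SE), and Nfe2l2, the gene of NRF2, was lower (-0.47 ± 0.16). Without Nr2e3-/- replicate 1 they gave 0.65 (adjusted p = 0.0195, range over alternatives 0.0195 to 0.448) and -0.46 (0.126, range 0.0311 to 0.427). The xenobiotic receptors CAR (Nr1i3, -0.84 ± 0.38) and PXR (Nr1i2, -0.55 ± 0.28) overlapped between genotypes, and without Nr2e3-/- replicate 1 the value of Nr1i2 was -0.94 (adjusted p = 0.00908, range over alternatives 0.00908 to 0.594).

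Motifs of 2 of these factors were looked for in the promoter table, which holds 61 start regions of 300 bases for 51 of the members, on both strands. The antioxidant response element of NRF2, TGACNNNGC, was found in 3 of the 61, or 4.92%, beside 12.4% of all 32851 regions, those of Gsta3, Gstm5 and Gstm7. The core of the xenobiotic response element of the aryl hydrocarbon receptor, GCGTG, was found in 11, or 18% beside 32.4%. Several of the Ugt and Sult regions belong to near copies, so these are not independent counts, and the matches are a description of letters only. Neither motif was found for Ugt2b37, Ugt2b38 or Sult1e1.

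Markers of other cells were measured beside the members. The summed level of 7 bile duct markers was 122, 66.3 and 58.0 CPM in WT and 69.9, 429 and 187 CPM in Nr2e3-/- replicates 1, 2 and 3, mostly from Spp1. Epcam of the same list read 1.80, 2.37 and 2.08 CPM in WT and 1.79, 11.0 and 5.78 CPM in Nr2e3-/- replicates 1, 2 and 3, while Cftr, a defining marker, stayed at or under 0.372 CPM in all libraries and Krt19 at or under 1.79 CPM. Of these 7, 6 were tested, and 2 were higher and 1 lower at an unadjusted p under 0.05. The sum, Spp1, Epcam and Cftr had the order of Ugt2b37 and Sult1e1 among the Nr2e3-/- libraries, with replicate 1 lowest and replicate 2 highest. Krt7, Krt19 and Sox9 were highest in replicate 1, and Cldn7 and Ugt2b38 in replicate 3. The 6 immune markers in the table summed to between 112 and 145 CPM in WT and between 109 and 246 CPM in Nr2e3-/- tumors, and the 8 stromal and endothelial markers to between 427 and 445 CPM and between 307 and 449 CPM. The summed level of the hepatocyte markers overlapped between genotypes, as did 4 of the 6, while the fibrinogen gene Fgb (3845 to 4756 CPM in WT, 5825 to 12500 CPM in Nr2e3-/- tumors) and Tat, of tyrosine breakdown (570 to 755 and 874 to 2450 CPM), lay above WT without overlap at an unadjusted p under 0.05. The part of these cells in the values of Ugt2b37, Ugt2b38, Sult1e1 and the other members was not tested.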

How the data were processed

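RNA-seq of liver tumors from 3 WT and 3 Nr2e3-/- mice was analysed from the deposited table of raw counts per gene. Per the study's methods, the authors aligned single-end reads of TruSeq libraries to mm10 (GRCm38) with TopHat and counted them with featureCounts, whose versions and annotation are not given in the sources used here. The submitters' processing notes also list Bowtie2 2.4.5 and SAMtools 1.14. Of the other tables, the normalized one holds counts scaled per library and the comparison one log2 fold changes, standard errors and p-values from DESeq2, and neither was used.

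Counts were filtered with filterByExpr (minimum count 10, minimum total 15), scaled by TMM and tested over 13572 genes with edgeR 4.0.16 in R 4.3.3 (quasi-likelihood F test, two-sided, Benjamini-Hochberg adjustment). SE values are the log2 fold change divided by the root of F. CPM values are counts over the library total times its TMM factor, without a pseudocount, and correlations used log2 CPM with a prior count of 2. The genotype given by the labels set the groups, and dose, age and time point come from the paper. Genes named were, per family, those with an adjusted or unadjusted p under 0.05, the 4 most abundant, the largest rise and fall with at least 50 counts on average, and those of the NRF2 and female-predominant lists, and near copies were named for shared reads. The members and lists were chosen with earlier results of these data known, and the lists were written from memory. Members named beyond this rule (such as Ugt2a3, Ugt3a1, Sult4a1 and Sult2b1) and genes of the other lists without a p under 0.05 (such as Gclc and Papss2) were named after their values were seen. Alternatives were RLE and upper quartile scaling, DESeq2 1.42.0, limma-voom (limma 3.58.1), other filters, a replicate block and leaving out each library. Levels per kilobase used exon lengths of GENCODE M21, in which all 59 members were found, and positions and start regions came from RefSeq. The values of some genes of the other lists, which entered the counts, are not reported here. The fits were tested on simulated data. The upper limit for a count of 0 covers counting error only.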

Additional observations from a re-analysis of the deposited data

How the results depend on the processing

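Depth limited the scarce members: 14 of 59 did not pass the filter (with no filter beyond 1 count or with DESeq2, 58 were fitted), and Sult1e1 had too few WT counts for the filter of 10 counts in every library, so it has no value there. The number of all genes with an adjusted p under 0.05 was 13 with edgeR, 8 with upper quartile scaling, 1093 with DESeq2, 2360 with limma-voom, 70 with no filter beyond 1 count, 7 with 10 counts in every library and 0 with the replicate block, and it ran from 0 to 3022 when 1 library was left out, the highest without Nr2e3-/- replicate 1. The cause was not tested.

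Called glutathione transferases numbered 0 with edgeR, 2 with DESeq2 and 2 with limma-voom (leaving out 1 library, 0 to 2). Called glucuronosyltransferases numbered 0, then 4 with DESeq2, 3 with limma-voom and 1 with no filter (0 to 3), called sulfotransferases 0, then 3, 3 and 1 (0 to 4), and called genes of the other pathway lists 0, then 5, 13 and 3 (0 to 14). Among the fits that left out 1 library, the highest number came each time without Nr2e3-/- replicate 1. At an unadjusted p under 0.05, glutathione transferases higher in Nr2e3-/- tumors went from 2 to 1 with upper quartile scaling (leaving out 1 library, 1 to 2), and those lower, 2, ranged from 1 to 4. Glucuronosyltransferases lower went from 2 to 10 with upper quartile scaling, 8 of them Ugt1a rows (leaving out 1 library, 1 to 2). Sulfotransferases higher went from 2 to 1 with 10 counts in every library, and those lower, 2, ranged from 1 to 2. Of all calls at an unadjusted p under 0.05, 54.8% were higher in Nr2e3-/- tumors with TMM and 38.2% with upper quartile scaling, which moved the median log2 fold change of all genes from 0.01 to -0.08. Of the 18 tested glucuronosyltransferases, 8 are Ugt1a rows that repeat 1 measurement, and the median of the other 10 was 0.017 with TMM. The median of all 18 stayed below 0 in all settings (-0.328 to -0.199). Those of the other families lay near 0 and changed sign: the glutathione transferases (-0.065) gave 0.001 with limma-voom and 0.028 with no filter, and the sulfotransferases (0.069) gave -0.013 with upper quartile scaling, -0.014 without WT replicate 1 and -0.077 without Nr2e3-/- replicate 1.

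The 29 tested members that the naming rule takes gave 380 values. These cover 13 settings and, for Ugt1a1, Ugt1a5, Ugt1a6a and Ugt1a6b, also the added counts above the shared Ugt1a part. Of the 380, 336 kept direction and side of the threshold, those of the added counts among them. Another 28 passed the threshold and 16 changed sign, those of Gsta1, Gstm3, Gstm6, Sult1b1 and Sult1d1. Gsta1 (0.08) became -0.016 with upper quartile scaling and -0.022 with the replicate block (leaving out 1 library, -0.531 to 0.429). Gstm3 (0.05) became -0.041 with upper quartile scaling (-0.165 to 0.2), and Sult1b1 (0.01) became -0.067 with it, -0.047 with limma-voom and -0.004 with 10 counts in every library (-0.135 to 0.142). Leaving out 1 library gave -0.032 to 0.249 for Gstm6 and -0.019 to 0.495 for Sult1d1, each lowest without Nr2e3-/- replicate 1. Of the 16 tested members outside the rule, 8 changed sign in 1 or more settings (26 of 207 values): Gstk1, Gstm7, Gsto1, Ugt2a3, Ugt2b36, Ugt2b5, Ugt3a1 and Ugt3a2, with values from -0.255 to 0.186.

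The labels number the replicates 1 to 3 in both genotypes. Same-numbered libraries had correlations of their deviations of -0.077, 0.221 and 0.023, and 2 of 6 libraries correlated best with their own number. These values, from 3 libraries per group, cannot tell whether the numbers pair the samples. With the replicate as a block 0 of 45 members were called, as without it. The counts above the shared Ugt1a part were added after seeing the data.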
